A study of Mus musculus with 10 samples.

Results

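The SLC25 carriers are the proteins that move metabolites, nucleotides and cofactors across the inner mitochondrial membrane, and a few of them serve the outer membrane or the peroxisome. Their transcripts were followed in interscapular brown adipose tissue (iBAT) of Axl knockout (Axl KO) and wild-type (WT) mice. The genes were taken by symbol and level: protein-coding genes named Slc25a with a mean above 1 CPM (counts scaled to a library of 1000000) over the 10 mice, apart from Slc25a20 and Slc25a44. Of 47 such genes in the count tables, 39 lay above 1 CPM, and 37 remained once both named genes were set aside, out of 13739 genes tested and 41249 identifiers in all. The lowest genes kept were Slc25a29 and Slc25a14, with means of 2.12 and 2.15 CPM, and the highest gene left out was Slc25a2, the second ornithine carrier, with 0.598 CPM.

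The study asked how the loss of AXL, a receptor tyrosine kinase, affects brown fat under a high-fat diet (HFD). The labels describe 5 whole-body constitutive Axl KO mice and 5 WT mice. Each mouse received HFD for 24 weeks, starting at 6 to 8 weeks of age by the labels; the methods and legend of the study state a slightly later start and a slightly longer diet. According to the methods and legend, the mice were male, the WT mice were littermates, and the Axl KO line came from a pair of embryonic stem cell clones that carry a gene-trap cassette in an intron of Axl, so no cell type is spared. RNA of the whole depot was sequenced, with 1 library per mouse, and in such RNA a smaller number of cells of one type cannot be told apart from less RNA per cell. The counts summed to between 5431014 and 8214841 per Axl KO mouse and to between 5952427 and 9580215 per WT mouse.

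Axl had 13, 13, 15, 3 and 9 counts in Axl KO mice 1 to 5 and 383, 361, 357, 224 and 359 counts in WT mice 1 to 5. Its normalized count was 1.57 ± 0.646 CPM against 43.1 ± 5.86 CPM (SD, n = 5 each), a log2 fold change of -4.77 (standard error 0.20, adjusted p = 1.1e-07, edgeR quasi-likelihood test with Benjamini-Hochberg adjustment). Brown adipocyte markers were expressed in every mouse, with a summed level of 8433 to 11623 CPM in Axl KO and 6544 to 8687 CPM in WT mice. Of these 10 markers, 9 were higher in Axl KO mice, against 49.8% of all genes. In the edgeR fit 5 had an unadjusted p under 0.05, against 8.4% of all genes. None passed adjustment by edgeR (lowest adjusted p = 0.571), and 1 did by DESeq2, against 0.0655% of all genes. Skeletal muscle RNA was uneven: the 12 muscle markers summed to 26.1, 7.06, 1851, 665 and 3613 CPM in Axl KO mice 1 to 5 and to 3482, 910.3, 4298, 3358 and 871 CPM in WT mice 1 to 5. All 12 muscle markers were lower in Axl KO mice (median -1.05 on the log2 scale), although none had an unadjusted p under 0.05. All 6 fibroblast markers were lower in Axl KO mice (median -0.24 on the log2 scale), with sums of 387 to 665 CPM against 567 to 749 CPM. Of them, 1 had an unadjusted p under 0.05 by edgeR, against 8.4% of all genes. Of the 6 smooth muscle and pericyte markers, 5 were lower (median -0.090). None of these had an unadjusted p under 0.05 by edgeR, and 1 did by DESeq2, against 6.93% of all genes. The part of these cells in the carrier values was not tested. The 6 B and T cell markers lay below the filter, at 0.154 to 2.01 CPM in sum.

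Carriers of this family share a fold of repeated membrane-spanning helices, and most exchange one substrate for another. Uncoupling protein 1 (UCP1), which lets brown adipocyte mitochondria release energy as heat, is itself a member of the family under another symbol. In brown fat, the ADP/ATP carriers and the phosphate carrier feed ATP synthase. The citrate carrier exports the carbon for fatty acid synthesis, and cofactor carriers supply the matrix enzymes that oxidize fuel.

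The most abundant carrier transcripts in WT iBAT were led by both ADP/ATP carriers. Divided by the length of exon in each gene, Slc25a5, the ADP/ATP carrier ANT2, reached 260.2 ± 9.84 CPM per kb (SD, n = 5), and Slc25a4, its relative ANT1, reached 214 ± 14.4 CPM per kb. Slc25a1, the citrate carrier, followed at 138 ± 45.9 CPM per kb. Slc25a51, the NAD+ carrier (112 ± 7.42), and Slc25a39, the glutathione carrier (110.1 ± 9.66), did not differ from each other beyond their spread, nor from Slc25a1 beyond its own. Slc25a11, the oxoglutarate carrier of the malate-aspartate shuttle, had 88.1 ± 4.53 CPM per kb, and Slc25a3, the phosphate carrier, had 51.1 ± 3.45. Slc25a42 and Slc25a17, which carry coenzyme A and related cofactors into mitochondria and peroxisomes, were level at 30.3 ± 6.58 and 30.1 ± 4.19 CPM per kb. At the other end stood Slc25a53, of unknown substrate, with 0.566 ± 0.0987 CPM per kb. Per kb of exon, the highest and lowest level were thus 459-fold apart.

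Of the 36 gaps between neighbours in this order, 11 were larger than the SD of either neighbour. These included the steps from Slc25a5 to Slc25a4, from Slc25a4 to Slc25a1, from Slc25a39 to Slc25a11, from Slc25a11 to Slc25a3 and from Slc25a3 to Slc25a42. Between Slc25a15 and Slc25a27, at 5.40 and 0.796 CPM per kb, no gap between neighbours exceeded the SD. With the longest protein-coding transcript in place of the union of exons, the same 8 genes led, but Slc25a39 moved to rank 3 and Slc25a3 to rank 6. Slc25a27 was then lowest (1.08 CPM per kb), below Slc25a53 (1.41 CPM per kb). The order within the leading group and at the low end thus depends on the length used, and so does the fold between highest and lowest. The level of Slc25a5 is also uncertain, because 46.6% of its 50-base exon windows occur in 9 other annotated genes, and how the counting treated such reads is not given in the sources used here.

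**Figure D1:**
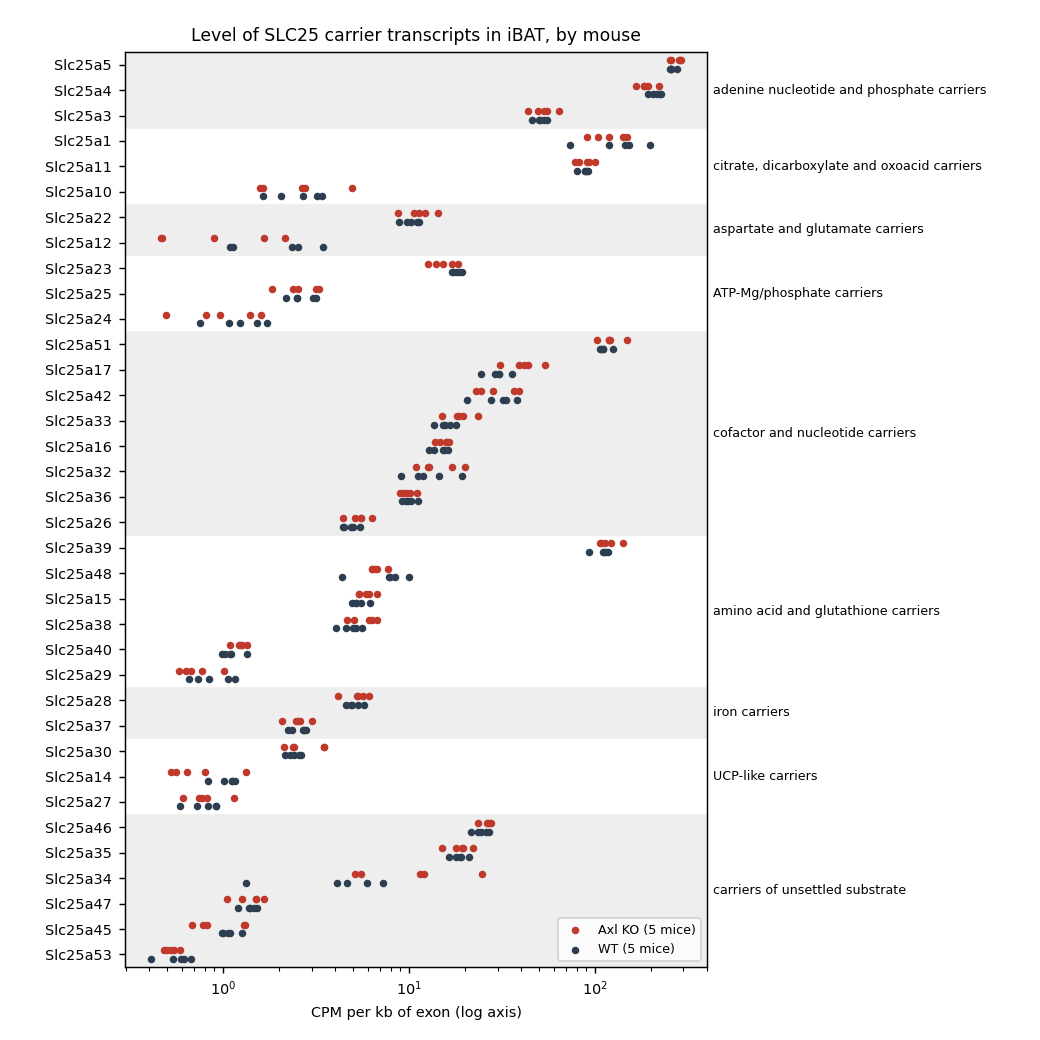
Level of 36 of the 37 SLC25 carrier transcripts in CPM per kb of exon (log axis), 1 point per mouse, grouped by substrate (shaded bands). Slc25a5 and Slc25a4 stood highest, Slc25a53 lowest at 0.566 CPM per kb in WT mice, and the points of Axl KO (red) and WT (dark) mice overlapped for every carrier shown.

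Summed by role, the 3 adenine nucleotide and phosphate carriers held 39.6% of the members' CPM per kb in WT mice, the 9 cofactor and nucleotide carriers 26.1% and the 3 citrate, dicarboxylate and oxoacid carriers 17.2%. The 6 amino acid and glutathione carriers held 9.80%, most of it from Slc25a39. Carriers of calcium-regulated ATP-Mg/phosphate exchange held 1.65%, aspartate and glutamate carriers 0.932%, the mitoferrins 0.577% and the UCP-like carriers Slc25a14, Slc25a27 and Slc25a30 together 0.320%. These shares describe RNA and not protein.

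For 8 genes of the family at most a trace was counted. Slc25a41 and Slc25a54 had 0 counts in each of the 10 mice, where 3 counts of the 72927886 in all would be 0.0411 CPM. Slc25a21, the oxoadipate carrier, had 0.0239 CPM, and Slc25a43, Slc25a31 (the testis ADP/ATP carrier ANT4) and Slc25a18 (the second glutamate carrier) had 0.0751, 0.126 and 0.144 CPM. Slc25a13 (citrin), the liver form of the aspartate/glutamate carrier, had 0.380 CPM, or 1 to 6 counts per mouse, so Slc25a12 (aralar) was the one aspartate/glutamate carrier above the filter. Several of these genes adjoined a relative above 1 CPM (GRCm38). Slc25a41 lies 2056 bp from Slc25a23 (mean 88.5 CPM) on chromosome 17. Slc25a54 lies 6461 bp from Slc25a24, itself low at 3.97 CPM, on chromosome 3. Slc25a43 lies 18448 bp from Slc25a5 (439 CPM) on the X chromosome. Slc25a29 and Slc25a47, both expressed at a low level, point away from each other 162 bp apart on chromosome 12. The 37 members were spread over 19 chromosomes, with no more than 5 on any of them.

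Between genotypes, none of the 37 carriers passed an adjusted p of 0.05, by edgeR's quasi-likelihood test or by DESeq2, where 0.00728% of all tested genes (Axl alone) passed by edgeR and 0.0655% by DESeq2. At an unadjusted p under 0.05 edgeR gave 5 members (13.5%), against 8.4% of all genes, and DESeq2 gave 5 against 6.93%. Of these, 3 were higher in Axl KO mice, a direction in which 4.54% of all genes passed, and 2 were lower, where 3.86% of all genes passed. In no member did the values of the groups fail to overlap, against 1.35% of all genes. The count of 5 became 3 (8.11%) without Axl KO mouse 1, Axl KO mouse 4, WT mouse 1 or WT mouse 4, each left out alone, where the share of all genes was 5.93% to 7.90%. It became 8 (21.6%) without Axl KO mouse 3, where the share of all genes rose as well, to 14.8%. Slc25a17 and Slc25a34 had an unadjusted p under 0.05 in each of the 20 alternatives. The other 3 members all lost it with the replicate number as a block and without Axl KO mice 1 and 2. With single mice left out, Slc25a4 kept it only without Axl KO mouse 5 or WT mouse 5. Slc25a33 kept it only without Axl KO mouse 1 or 3 or WT mouse 2 or 3. Slc25a23 lost it without Axl KO mouse 1, 3 or 5 or WT mouse 3 or 5.

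Regardless of the test, 22 of 37 members (59.5%) were higher in Axl KO mice, against 49.8% of all genes. The median log2 fold change of the members was 0.040, against -0.00060 for all genes. In 32 members the log2 fold change was below 0.25 in size, and 2 members, Slc25a34 and Slc25a12, differed by over 1.5-fold. The standard errors ran from 0.060 to 0.45. The summed level of the 37 carriers was 4328 ± 336 CPM in Axl KO and 4220.3 ± 152 CPM in WT mice, a ratio of 1.03. The sum was highest in Axl KO mouse 5, at 4806 CPM, and lowest in Axl KO mouse 3, at 3912 CPM, so the WT sums of 3989 to 4364 CPM lay inside the Axl KO range.

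**Figure D2:**
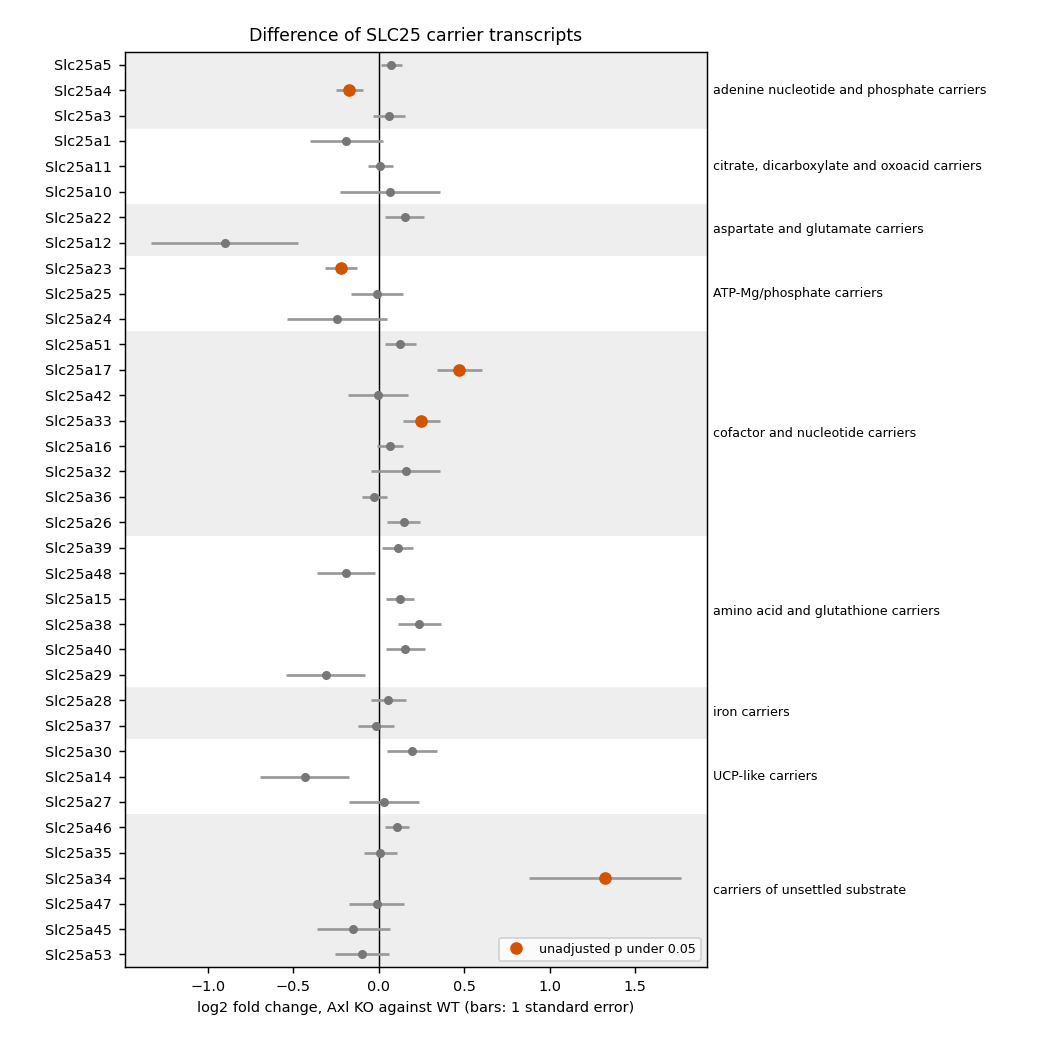
Log2 fold change of 36 of the 37 SLC25 carrier transcripts, Axl KO against WT, with 1 standard error (edgeR), grouped by substrate. Filled orange points mark the 5 members with an unadjusted p under 0.05; Slc25a34 lies farthest to the right at 1.32 and Slc25a12 farthest to the left at -0.90.

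The cofactor carrier Slc25a17 (ENSMUSG00000022404, chr15:81318911-81360812, minus strand, GRCm38) had the lowest p of the 37. It encodes PMP34, which sits in the peroxisomal membrane and carries coenzyme A, FAD and NAD+, cofactors of peroxisomal fatty acid oxidation. Its normalized count was 124, 119, 88.0, 112 and 153 CPM in Axl KO mice 1 to 5 and 69.35, 87.4, 87.2, 103 and 82.4 CPM in WT mice 1 to 5. Axl KO mouse 3 lay among the WT mice, and the other 4 Axl KO mice lay above all of the WT mice. On the log2 scale the difference was 0.47 (standard error 0.13, unadjusted p = 0.00357, adjusted p = 0.571, edgeR quasi-likelihood test), and a two-sided exact permutation test gave p = 0.0159, where 0.00794 is the smallest that 5 against 5 allows. Omitting any single mouse gave values from 0.37 to 0.56.

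Slc25a34 (ENSMUSG00000040740, chr4:141618824-141623821, minus strand), a carrier whose substrate is not settled, showed the largest difference and the largest spread. It had 13.7, 32.3, 14.7, 30.7 and 65.9 CPM in Axl KO mice and 3.55, 12.5, 15.8, 19.4 and 10.9 CPM in WT mice, from 26 to 350 counts. Axl KO mice 2, 4 and 5 stood above every WT mouse, while Axl KO mice 1 and 3 fell inside the WT range. The log2 fold change was 1.32 (standard error 0.45, unadjusted p = 0.0112, adjusted p = 0.571, edgeR), and the exact permutation p was 0.0635 (two-sided). Without Axl KO mouse 5, the highest, the log2 fold change was 0.88. Its coefficient of variation, 67.1% in Axl KO and 47.8% in WT mice, was the highest of the 37 carriers in either group.

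Slc25a33 (ENSMUSG00000028982, chr4:149744036-149774277, minus strand), a pyrimidine nucleotide carrier, had 34.4, 35.2, 28.6, 36.7 and 44.2 CPM in Axl KO mice and 29.6, 34.0, 31.3, 25.6 and 28.9 CPM in WT mice. All but Axl KO mouse 3 stood above the highest WT mouse, though closely so for mice 1 and 2. The log2 fold change was 0.25 (standard error 0.11, unadjusted p = 0.0385, adjusted p = 0.578, edgeR), and the exact permutation p was 0.0714 (two-sided). Without Axl KO mouse 5 the log2 fold change was 0.16 (unadjusted p = 0.113, edgeR). With the replicate number as a block or muscle markers as a covariate the unadjusted p was 0.0585 or 0.0565 (edgeR). An antisense gene, Gm13068, covers 14.9% of its exonic bases, and the strand setting of the counting is not given in the sources used here.

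The 2 members of the 5 that had lower values in Axl KO mice both exchange adenine nucleotides. Slc25a23 (ENSMUSG00000046329, chr17:57043711-57059863, minus strand), a calcium-regulated carrier of ATP-Mg and phosphate, had 73.9, 89.9, 80.4, 97.5 and 66.8 CPM in Axl KO mice and 94.9, 91.3, 97.9, 90.4 and 102 CPM in WT mice. Only Axl KO mouse 4 reached the WT range, and the WT values were the tighter, with a coefficient of variation of 5.04% against 15.01%. The log2 fold change was -0.22 (standard error 0.092, unadjusted p = 0.0317, adjusted p = 0.571, edgeR), and the exact permutation p was 0.0556 (two-sided). With each mouse left out the log2 fold change ran from -0.29 to -0.16. Slc25a4 (ENSMUSG00000031633, chr8:46206797-46211284, minus strand), the ADP/ATP carrier of muscle and heart, had 391, 433, 435, 453 and 519.8 CPM in Axl KO mice and 529, 486, 537, 512 and 453 CPM in WT mice. Apart from Axl KO mouse 5, the Axl KO mice lay below the lowest WT mouse, Axl KO mouse 4 by less than 1 CPM. The log2 fold change was -0.17 (standard error 0.079, unadjusted p = 0.0472, adjusted p = 0.588, edgeR), and the exact permutation p was 0.0635 (two-sided). With each mouse left out the log2 fold change ran from -0.24 to -0.13.

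**Figure D3:**
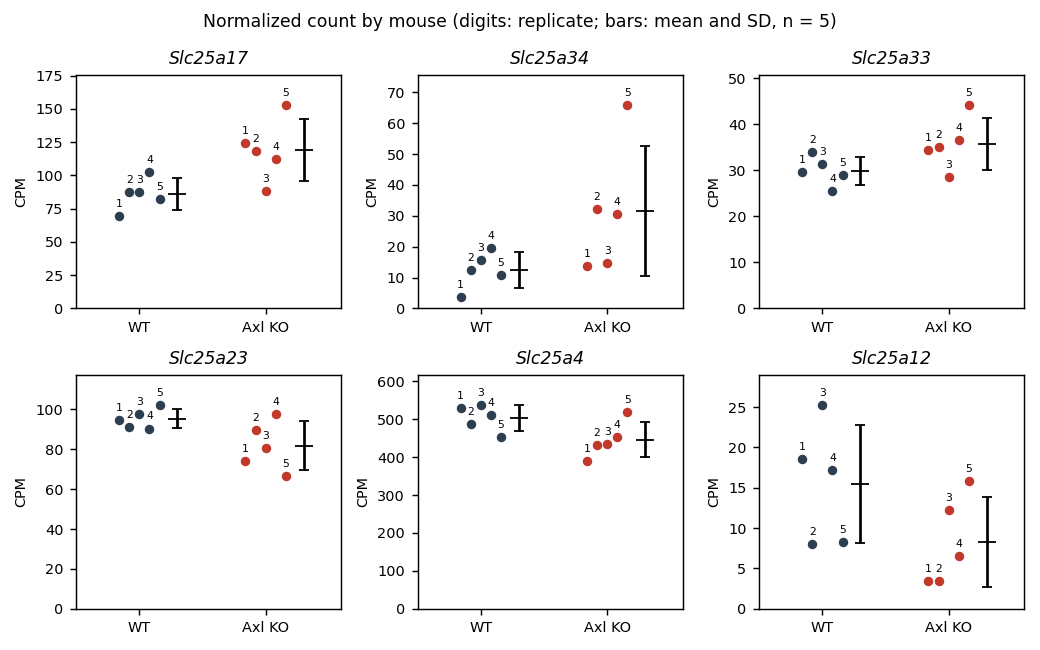
Normalized count in CPM of the 5 members with an unadjusted p under 0.05 and of Slc25a12, 1 point per mouse with its replicate number, with the mean and SD (n = 5) beside each group; axes start at 0. In each panel at least 1 Axl KO mouse lies inside the WT range, and Axl KO mouse 5 is the highest of all mice for Slc25a17 (153 CPM), Slc25a34 (65.9 CPM) and Slc25a33 (44.2 CPM).

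Promoter sequence was read for these members because they were the ones with low p, and for the citrate carrier, whose level varied most among the 8 highest carriers. The sequences are from RefSeq (build GRCm38.p6), 5′ to 3′ on the strand of the gene, and run up to 250 bases before the start site. Bases that GENCODE places inside the gene are not printed. For Slc25a4 only a short stretch, chr8:46211285-46211312, lies outside the gene, and it is not printed either. Capitals mark CCAAT or its reverse complement ATTGG and, in Slc25a1, the E-box CACGTG.
Slc25a17, chr15:81360813-81361015, minus strand: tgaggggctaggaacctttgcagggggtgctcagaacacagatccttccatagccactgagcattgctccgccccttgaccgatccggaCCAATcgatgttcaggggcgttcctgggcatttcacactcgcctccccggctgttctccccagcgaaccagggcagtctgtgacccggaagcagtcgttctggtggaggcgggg
Slc25a34, chr4:141623835-141624084, minus strand: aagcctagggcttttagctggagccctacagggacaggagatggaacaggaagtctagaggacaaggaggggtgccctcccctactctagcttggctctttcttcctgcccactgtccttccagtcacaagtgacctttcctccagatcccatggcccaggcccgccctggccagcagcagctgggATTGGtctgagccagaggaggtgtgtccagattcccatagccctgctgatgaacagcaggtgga
Slc25a33, chr4:149774278-149774517, minus strand: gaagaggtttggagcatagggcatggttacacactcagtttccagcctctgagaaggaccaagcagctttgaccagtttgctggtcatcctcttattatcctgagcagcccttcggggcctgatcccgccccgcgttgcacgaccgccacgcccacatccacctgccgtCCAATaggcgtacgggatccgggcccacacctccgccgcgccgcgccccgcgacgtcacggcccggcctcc
Slc25a23, chr17:57059864-57060113, minus strand: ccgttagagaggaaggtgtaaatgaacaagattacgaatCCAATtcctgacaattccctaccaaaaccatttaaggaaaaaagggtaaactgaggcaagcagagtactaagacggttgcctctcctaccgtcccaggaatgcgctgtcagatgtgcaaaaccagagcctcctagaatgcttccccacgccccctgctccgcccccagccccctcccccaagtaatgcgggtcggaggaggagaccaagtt
Slc25a1, chr16:17928220-17928469, minus strand: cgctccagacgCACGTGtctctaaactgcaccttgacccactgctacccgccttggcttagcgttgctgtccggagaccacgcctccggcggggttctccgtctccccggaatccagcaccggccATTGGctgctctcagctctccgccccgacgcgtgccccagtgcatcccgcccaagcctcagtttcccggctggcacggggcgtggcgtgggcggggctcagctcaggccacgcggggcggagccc
CCAAT began 161 bases before the start of Slc25a17, 64 before Slc25a34, 81 before Slc25a33, 211 before Slc25a23 and 125 before Slc25a1, and 112 and 56 bases before Slc25a4. The letters CACGTG stood 239 bases before the start of Slc25a1 and, in bases not printed, 8 before Slc25a33.

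A promoter was found for 29 of the 37 members. CCAAT, searched on both strands of the 250 bases, was in 16 of the 29 (55.2%), against 37.5% of 27025 genes, and all 5 members with an unadjusted p under 0.05 were among the 16. CACGTG was in 5 (17.2%) against 6.86%: Slc25a1, Slc25a14, Slc25a15, Slc25a33 and Slc25a36. The cAMP response element TGACGTCA was in Slc25a25 and Slc25a36 (6.90% against 1.77%), and the nuclear respiratory factor motif (GCGCA and GCGC, 1 base apart) in Slc25a3 (3.45% against 4.23%). TCAAGGTCA, the letters bound by estrogen-related receptors, was in 0 of the 29 and in 0.422% of all genes, and a direct repeat of AGGTCA with 1 base between, bound by other nuclear receptors, in 0 and in 0.0407%. TCAAGGTCA and this repeat share the letters AGGTCA, and a stretch may count under both. The 27025 genes are more than the 13739 tested, while the members all lay above 1 CPM, so these shares compare unlike sets of genes. A match describes letters only, and a link of CCAAT with the differences between genotypes was not tested.

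Slc25a12 (ENSMUSG00000027010, chr2:71271063-71367749, minus strand), named here after its values were seen, tracked skeletal muscle RNA from mouse to mouse. This calcium-regulated aspartate/glutamate carrier is the form of heart, muscle and brain. It had 3.39, 3.46, 12.2, 6.55 and 15.8 CPM in Axl KO mice and 18.6, 8.04, 25.2, 17.2 and 8.31 CPM in WT mice, from 22 to 218 counts. The lowest values were in Axl KO mice 1 and 2, the mice with the lowest muscle marker sums (26.1 and 7.06 CPM), and the highest in WT mouse 3, which had the highest muscle sum (4298 CPM). The log2 fold change was -0.90 (standard error 0.43, unadjusted p = 0.0571, adjusted p = 0.601, edgeR). With the muscle markers as a covariate it was -0.15, and without Axl KO mice 1 and 2 it was -0.43.

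For Slc25a4 the same alternatives gave -0.074 and -0.10, in place of -0.17. Its partner Slc25a5, the form of dividing and non-muscle cells, had 467, 421, 417, 477 and 470.3 CPM in Axl KO mice and 422, 457, 423, 421 and 419 CPM in WT mice, a log2 fold change of 0.073 (standard error 0.060). The ratio of Slc25a4 to Slc25a5 within each mouse, which does not depend on library scaling, was 0.585, 0.720, 0.731, 0.664 and 0.773 in Axl KO mice and 0.877, 0.744, 0.887, 0.850 and 0.757 in WT mice. Axl KO mouse 5, with the highest muscle sum of its group, had the highest ratio of its group, and WT mice 2 and 5, with the lowest muscle sums of theirs, had the lowest of theirs. The order did not hold throughout, since Axl KO mouse 2, with the lowest muscle sum of all, had a higher ratio than Axl KO mice 1 and 4. The ratio was lower in Axl KO mice by 0.25 on the log2 scale (two-sided exact permutation p = 0.0317, adjusted p = 0.222 over the 7 pairs of related carriers compared), so it did not pass after adjustment, and the counts of Slc25a5 carry the uncertainty given above. In Slc25a17 the same alternatives left the log2 fold change at 0.48 and 0.45, and in Slc25a34 they gave 1.58 and 1.55.

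**Figure D4:**
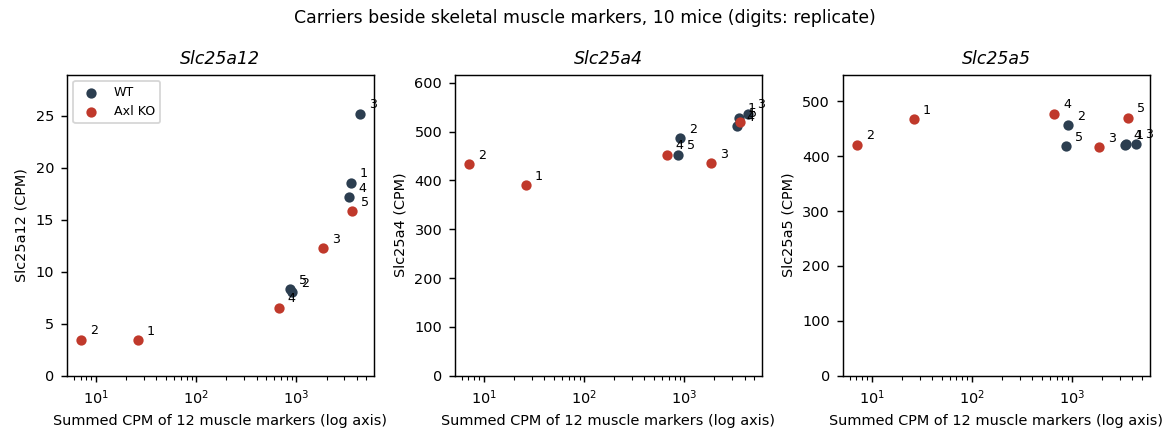
Slc25a12, Slc25a4 and Slc25a5 in CPM (axes from 0) against the summed CPM of 12 skeletal muscle markers (log axis) in the 10 mice, with replicate numbers. Slc25a12 is at 3.39 and 3.46 CPM in Axl KO mice 1 and 2, where muscle markers sum to 26.1 and 7.06 CPM, and at 25.2 CPM in WT mouse 3, which has the highest sum.

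No other pair of related carriers passed the test of its ratio either. Slc25a33 to Slc25a36, both pyrimidine nucleotide carriers, differed by 0.28 on the log2 scale (exact permutation p = 0.0952, adjusted p = 0.333), and Slc25a23 to Slc25a25 by -0.20 (exact permutation p = 0.246). Slc25a28 to Slc25a37 (mitoferrins 2 and 1, the iron importers), Slc25a39 to Slc25a40 (glutathione), Slc25a16 to Slc25a42 (coenzyme A) and Slc25a10 to Slc25a11 (dicarboxylate and oxoglutarate) had differences between -0.055 and 0.072 on the log2 scale, with exact permutation p of at least 0.659. Slc25a12 to Slc25a13 was not compared, since citrin lay below the filter. Part of the exonic sequence of Slc25a36 (11.8% of 50-base windows), Slc25a40 (10.3%), Slc25a10 (9.07%) and Slc25a37 (8.07%) also occurs in other genes, which leaves their counts less certain.

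Of the cofactor and nucleotide carriers, 7 of 9 had higher values in Axl KO mice, and the median difference was 0.13 on the log2 scale. Slc25a51, which brings NAD+ into the matrix, had 660.7, 660.7, 569, 669 and 819.6 CPM in Axl KO mice and 612, 689, 585, 609 and 599 CPM in WT mice. Only Axl KO mouse 5 stood clear of the rest, and the log2 fold change was 0.13 (standard error 0.089). Slc25a42, a coenzyme A carrier, ranged from 138 to 234 CPM in Axl KO and from 123 to 228 CPM in WT mice, differing by -0.0025 on the log2 scale (standard error 0.18). Slc25a16 differed by 0.064 and Slc25a36 by -0.025 on the log2 scale, each by less than its standard error. Slc25a26 and Slc25a32, which bring in S-adenosylmethionine and folate, are also on the list, and no p in it other than those of Slc25a17 and Slc25a33 was under 0.05.

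Among the amino acid and glutathione carriers 4 of 6 had higher values in Axl KO mice, and the log2 fold changes ran from -0.31 to 0.24 around a median of 0.12. Slc25a39, the leading member, was at 338, 297, 295, 314 and 393 CPM in Axl KO mice and at 317, 311, 258, 305 and 326 CPM in WT mice, a difference of 0.11 on the log2 scale (standard error 0.090), or of 0.035 without Axl KO mouse 5. Its paralogue Slc25a40 differed by 0.16 (standard error 0.11). Slc25a29, a carrier of basic amino acids with 10 to 24 counts per mouse, differed by -0.31 (standard error 0.23). All 3 ATP-Mg/phosphate carriers were lower, with Slc25a25 at -0.0090 (standard error 0.15) and a median of -0.22. Slc25a22, the glutamate carrier, differed by 0.15 (standard error 0.11), from 52.2 to 85.4 CPM in Axl KO and from 53.2 to 68.3 CPM in WT mice. Its difference was 0.062 without Axl KO mouse 5 and 0.24 without Axl KO mouse 3.

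The phosphate carrier Slc25a3 differed by 0.060 (standard error 0.094) and ranged from 243 to 358 CPM in Axl KO and from 256 to 307 CPM in WT mice. With muscle markers as a covariate, or without Axl KO mice 1 and 2, the difference was 0.18 (unadjusted p = 0.0648 and 0.0638, edgeR). Mitoferrins 2 and 1, Slc25a28 and Slc25a37, differed by 0.056 and -0.018 (standard errors 0.10 and 0.11). Of the UCP-like carriers 2 of 3 were higher, led by Slc25a30 at 0.19 (standard error 0.15). Of the 6 carriers of unsettled substrate 3 were higher, with a median log2 fold change of -0.0023. The most abundant of them, Slc25a46, an outer membrane protein that takes part in mitochondrial fusion and fission, differed by 0.11 (standard error 0.071).

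Among the 8 carriers with the highest level per kb, the citrate carrier Slc25a1 (ENSMUSG00000003528, chr16:17925223-17928219, minus strand) varied most, with a coefficient of variation of 27.6% over the 10 mice. It had 322, 198, 225, 257 and 306 CPM in Axl KO mice and 429.9, 330.1, 159.7, 258 and 314 CPM in WT mice. The highest and the lowest mouse were both WT, mice 1 and 3, and the log2 fold change was -0.19 (standard error 0.22). Without WT mouse 1 it was -0.022 and without WT mouse 3 it was -0.35. Slc25a10, the dicarboxylate carrier, ran from 5.46 to 17.1 CPM in Axl KO and from 5.67 to 11.7 CPM in WT mice, and differed by 0.066 on the log2 scale (standard error 0.30), or by -0.34 with muscle markers as a covariate. Slc25a11 was steadier, with a coefficient of variation of 5.14% in WT and 10.1% in Axl KO mice and a log2 fold change of 0.0094.

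Exported citrate is split in the cytosol by ATP-citrate lyase (Acly), and malic enzyme (Me1) yields NADPH for fatty acid synthesis. Across the 10 mice Slc25a1 went with both, on the scale of log2(CPM + 0.5). For Me1 Pearson's r was 0.94 (permutation p = 6e-05, adjusted p = 0.00072) and Spearman's rho 0.93 (permutation p = 0.00039). For Acly r was 0.89 (permutation p = 0.00062, adjusted p = 0.00372) and rho 0.85 (permutation p = 0.00288). Leaving out WT mice 1 and 3, the farthest from the median of Slc25a1, r was 0.86 for Me1 and 0.73 for Acly, and with each genotype centred on its mean r was 0.96 and 0.88. These are 2 of 12 genes of the shuttle and of citrate use, 11 enzymes and the plasma membrane transporter Slc1a3, that were compared after the values of Slc25a1 had been seen, and the other 10 had an adjusted permutation p of at least 0.0628. None of the 12 genes had an unadjusted p under 0.05 between genotypes by edgeR.

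**Figure D5:**
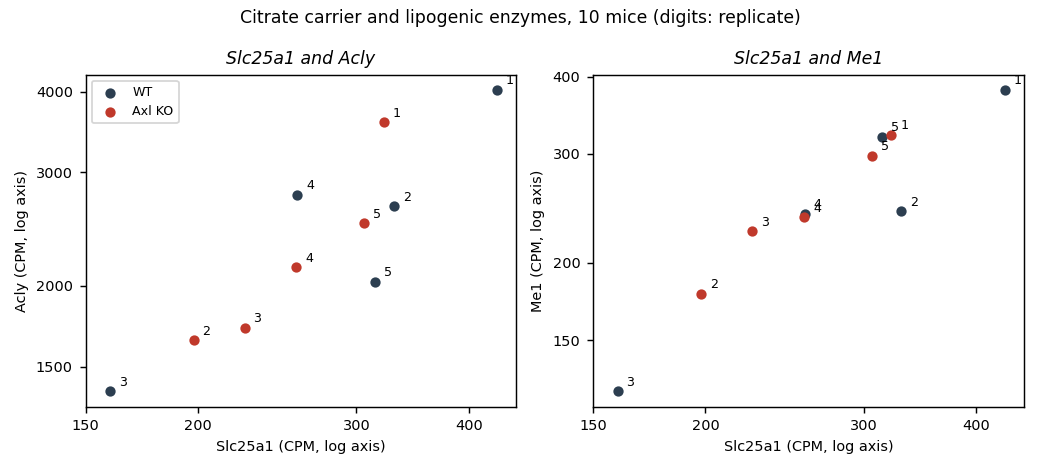
Slc25a1 in CPM against Acly and Me1 in CPM (all log axes) in the 10 mice, with replicate numbers. WT mouse 1 is highest and WT mouse 3 lowest on each axis, and the Axl KO mice (red) lie between them.

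Slc25a17, Slc25a34 and Slc25a33 shared their highest mouse, Axl KO mouse 5. That mouse had the highest value of all 10 for 11 of the 37 carriers, the most of any mouse. Axl KO mouse 3 had the lowest value for 9 carriers. The brown adipocyte marker sum was also highest in Axl KO mouse 5 (11623 CPM), and Ucp1, itself of this family, made up 7633 CPM of it. Among the other markers, Dio2 (149 CPM) and Elovl3 (164 CPM) were highest of all 10 mice in that mouse, and Cidea (1501 CPM) was lowest. The coefficient of variation was larger in Axl KO than in WT mice for 29 of the 37 carriers (78.4%), against 63.1% of all genes. Without Axl KO mouse 5 this held for 23 carriers (62.2%), against 56.6% of all genes. Its median over the carriers was 15.01% in Axl KO and 9.97% in WT mice. The part of the brown adipocyte content of the depot in these values was not tested.

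Of the 7 relatives outside the rule, 5 (71.4%) were higher in Axl KO mice, against 49.8% of all genes. In the edgeR fit 3 (42.9%) had an unadjusted p under 0.05, against 8.4% of all genes, and none had an adjusted p under 0.05. Ucp1 had 4871, 4854, 4876, 5571 and 7633 CPM in Axl KO mice and 3474, 4741, 2989.7, 5040.2 and 4351 CPM in WT mice. Axl KO mice 1, 2 and 3 lay inside the WT range and mice 4 and 5 above it, and the log2 fold change was 0.43 (standard error 0.16, unadjusted p = 0.0185, adjusted p = 0.571, edgeR). Mtch2, an outer membrane insertase of carrier descent, differed by 0.18 (standard error 0.064, unadjusted p = 0.0150, edgeR), and Slc25a20, the carnitine/acylcarnitine carrier of fatty acid oxidation, by 0.15 (standard error 0.067, unadjusted p = 0.0464, edgeR). The two-sided exact permutation p was 0.0556 for Ucp1, 0.0238 for Mtch2 and 0.0635 for Slc25a20. Of 23 other mitochondrial transporters, 12 (52.2%) were higher and 2 (8.7%) had an unadjusted p under 0.05 by edgeR. Both shares were near those of all genes, 49.8% and 8.4%. Mpc2, a subunit of the pyruvate carrier, was at 406 ± 72.5 against 336 ± 23.2 CPM (log2 fold change 0.27, unadjusted p = 0.0262, edgeR). Abcb6, a porphyrin transporter, was at 42.4 ± 2.1 against 46.7 ± 2.31 CPM without overlap between the groups (log2 fold change -0.14, unadjusted p = 0.0351, adjusted p = 0.571, edgeR). Such a lack of overlap was found in 1 of the 23 transporters and in 1.35% of all genes. The two-sided exact permutation p was 0.0714 for Mpc2 and 0.00794 for Abcb6.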

How the data were processed

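The authors deposited the raw count of reads per Ensembl gene for each mouse, without normalization. The study's methods name Trim Galore, hisat2 and rRNA-depleted RNA on GRCm38, whereas the submitters' processing notes name Trimmomatic 0.36, STAR 2.6.1c and GRCm38.p5, and the labels name polyadenylated RNA; the counting tool, strand setting and treatment of shared reads are not given in the sources used here. Of 41249 identifiers, 41163 were in GENCODE M21. Groups came from the labels, which give no batch.

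Genes with a mean above 1 CPM (plain library sizes) were tested in R 4.3.3 with edgeR 4.0.16 (TMM, quasi-likelihood test, all 10 mice, no covariate, Benjamini-Hochberg adjustment over 13739 genes). CPM values are TMM-scaled; CPM per kb uses the union of annotated exons. Exact permutation tests were two-sided. Correlations used 100000 permutations. The test was checked on simulated data. Any 2 libraries differed by more than counting noise (chi-square per gene at least 5.16).

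Members and lists were chosen with earlier results of these data known. Named genes are Axl, the 8 highest members per kb, members with an unadjusted p under 0.05 or separate groups, the leading member of each role, related pairs, the genes beside the 1 CPM threshold, and, in other lists, those with an unadjusted p under 0.05 and Ucp1; Slc25a12 and the rest named with values were added after their values were seen. Alternatives were DESeq2 1.42.0, RLE size factors, other filters, a robust fit, protein-coding genes alone, each mouse left out, the replicate number as a block, muscle markers as a covariate, another gene length, and, chosen after seeing the data, omission of Axl KO mice 1 and 2. Amino acid sequences were not used here. A member is counted in the sums and counts but is not reported here by name or plotted.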

Additional observations from a re-analysis of the deposited data

Results flagged for a closer look

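In WT mouse 2, Slc25a5 was at 457 CPM, far above the next WT mouse (423 CPM) for the range of that group, and Slc25a51 was at 689 CPM, above the next at 612 CPM. Of 68 groups of 5 mice examined for a single distant mouse, these 2 were past the 95% limit, where chance gives about 1 in 20, or 3.4. The causes were not tested.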

How the results depend on the processing

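No member passed an adjusted p of 0.05 in any of the 20 alternatives, and the number of genes called was 1 in each except DESeq2, where it was 9. Members with an unadjusted p under 0.05 numbered 3 to 8 with each mouse left out, 3 without Axl KO mice 1 and 2, and 3 with the replicate number as a block, while the share of all genes was 5.93% to 14.8%, 5.92% and 7.66%. The labels give no pairing of the replicate numbers. Correlations of the deviations of same-numbered mice ran from -0.36 to 0.37. They cannot decide whether the mice were paired, since differently numbered mice were not compared. The block changed no call at an adjusted p of 0.05. The number of members higher in Axl KO mice stayed between 20 and 25, and their median log2 fold change between 0.019 and 0.078. With muscle markers as a covariate, 4 members (10.8%) had an unadjusted p under 0.05 by edgeR, against 6.69% of all genes. Slc25a14 was among them, at -0.74 (unadjusted p = 0.0253, edgeR) in place of -0.43 (unadjusted p = 0.118, edgeR). Without Axl KO mice 1 and 2 Slc25a14 was at -0.64 (unadjusted p = 0.0230, edgeR). With the covariate the log2 fold changes of Slc25a28 and Slc25a10 turned to -0.011 and -0.34, and without Axl KO mice 1 and 2 that of Slc25a10 was -0.36. With each mouse left out, differences near 0 changed sign: Slc25a11 ran from -0.040 to 0.052, Slc25a3 from -0.019 to 0.12, Slc25a28 from -0.0025 to 0.14, Slc25a37 from -0.085 to 0.046, Slc25a36 from -0.070 to 0.018, Slc25a42 from -0.11 to 0.092, Slc25a25 from -0.11 to 0.087 and Slc25a10 from -0.25 to 0.20. The log2 ratio of Slc25a28 to Slc25a37 ran from -0.054 to 0.17, of Slc25a16 to Slc25a42 from -0.017 to 0.18 and of Slc25a10 to Slc25a11 from -0.29 to 0.18. Others kept their sign but moved by over 1.5 times: without Axl KO mouse 5 Slc25a51 was 0.047 and Slc25a30 0.10, without Axl KO mouse 1 Slc25a30 was 0.096, without WT mouse 1 Slc25a46 was 0.065, without WT mouse 3 Slc25a39 was 0.057, without WT mouse 5 Slc25a40 was 0.24 and Slc25a29 -0.20, and Slc25a16 ran from 0.021 to 0.10. The causes were not tested. The ratio of summed levels ran from 0.997, without Axl KO mouse 5, to 1.05. Depth limits the members with few counts, such as Slc25a14 with 7 to 25 per mouse.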
